A study of Mus musculus with 4 samples.

Results

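Small nucleolar RNAs were measured in microglia from mice with amyloid pathology, with and without the gene asrij. The members were the genes whose symbol begins with Snord (box C/D class) or Snora (box H/ACA class) and whose counts summed to 20 or more over the 4 libraries. This gave 81 members of 133 such genes, among 49993 genes counted in all: 49 of 94 Snord genes and 32 of 39 Snora genes. Of the 52 genes below 20 counts, 45 were Snord genes, 7 were Snora genes, and 20 of the 52 had no read in any library. The least abundant members were Snora20 and Snora34 at 21 counts, Snord35b at 22 and Snord68 at 23. The nearest genes left out were Snord1b at 19, Snord19 at 17, and Snord82 and Snord116l17 at 16 each.

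The libraries were bulk RNA-seq of CD11b+ cells, a sort for microglia by magnetic-activated cell sorting, from brain tissue of mice aged 10 months. Every mouse carried APP/PS1, a transgenic model of Alzheimer's disease in which amyloid is deposited in the brain. The AD group (APP/PS1+ asrij+/+, 2 libraries) had intact asrij, and the AD/KO group (APP/PS1+ asrij-/-, 2 libraries) carried a constitutive deletion of it, so that every cell type was affected and not microglia alone. Mice without the transgenes were not analysed here, and the labels do not say whether replicates came from separate mice, so p-values measure only the spread between these libraries.

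Box C/D RNAs pair with a target RNA and position the methyltransferase fibrillarin (Fbl) for ribose methylation, and box H/ACA RNAs position the pseudouridine synthase dyskerin (Dkc1). Most targets lie in ribosomal RNA and some in spliceosomal RNA, and a few abundant members serve in cleavage of the ribosomal RNA precursor. In mammals most are cut from introns of host genes, many of which encode ribosomal proteins or are non-coding Snhg genes. Box C/D RNAs carry the motif TGATG (box C) near the 5′ end and CTGA (box D) near the 3′ end, and box H/ACA RNAs end a few bases after an ACA.

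The sequences of the members on which the results turn are given from GENCODE M21 transcripts, on build GRCm38, with TGATG and CTGA in capitals for box C/D and the ACA in capitals for box H/ACA. The first 3 are the abundant Snord94 and Snord17 and the shorter Snord104, which differed in how the 2 AD/KO libraries behaved.
Snord94: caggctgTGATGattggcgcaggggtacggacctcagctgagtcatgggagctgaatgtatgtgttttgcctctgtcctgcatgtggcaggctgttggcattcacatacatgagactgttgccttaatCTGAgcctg
Snord17: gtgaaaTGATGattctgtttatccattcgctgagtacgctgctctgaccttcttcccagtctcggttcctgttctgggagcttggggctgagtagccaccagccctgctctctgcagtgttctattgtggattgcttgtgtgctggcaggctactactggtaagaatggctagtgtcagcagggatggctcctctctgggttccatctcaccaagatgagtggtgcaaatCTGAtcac
Snord104: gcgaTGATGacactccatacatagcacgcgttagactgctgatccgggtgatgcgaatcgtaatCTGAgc
Snord94 lies at chr6:71882557-71882693 (minus strand) inside Ptcd3, where it overlaps an exon of a transcript, and GENCODE lists it as Gm22486. Snord17 lies at chr2:144265979-144266216 (minus strand) in an intron of Snx5, and Snord104 at chr11:106500993-106501062 (plus strand) within the span of Gm36220 (strand not compared). The next 3 are Snord14 copies of the heat-shock gene Hspa8 on chromosome 9, plus strand, shown because near-identical copies are hard to separate by reads and because the third copy had other values. They lie at chr9:40803583-40803668 (Snord14c), chr9:40803995-40804080 (Snord14d) and chr9:40804748-40804837 (Snord14e).
Snord14c: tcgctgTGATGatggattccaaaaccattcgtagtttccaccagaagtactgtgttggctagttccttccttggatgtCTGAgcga
Snord14d: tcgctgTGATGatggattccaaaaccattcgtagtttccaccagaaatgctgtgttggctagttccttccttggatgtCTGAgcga
Snord14e: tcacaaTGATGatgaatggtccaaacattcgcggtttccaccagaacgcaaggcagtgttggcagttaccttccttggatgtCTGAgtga
Over 86 bases, Snord14c and Snord14d were 97.7% identical and differed by G47A and A49G, with Snord14c first and positions counted from its 5′ end. Snord73b, at chr3:86140618-86140688 (minus strand) inside Rps3a1, is shown as the tested box C/D member with the lowest log2 fold change.
Snord73b: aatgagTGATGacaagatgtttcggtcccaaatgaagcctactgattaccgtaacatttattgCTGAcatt
The box H/ACA members shown are the abundant pair inside Snhg3 and the shorter Snora5c, which was higher in AD/KO. They lie on the minus strand at chr4:132352322-132352526 (Snora73b), chr4:132352775-132352979 (Snora73a) and chr11:6620319-6620454 (Snora5c, inside Tbrg4).
Snora73b: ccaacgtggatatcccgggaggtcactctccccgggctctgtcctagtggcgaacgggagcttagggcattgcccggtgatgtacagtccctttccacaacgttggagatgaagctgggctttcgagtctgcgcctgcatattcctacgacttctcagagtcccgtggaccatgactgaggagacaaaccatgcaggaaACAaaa
Snora73a: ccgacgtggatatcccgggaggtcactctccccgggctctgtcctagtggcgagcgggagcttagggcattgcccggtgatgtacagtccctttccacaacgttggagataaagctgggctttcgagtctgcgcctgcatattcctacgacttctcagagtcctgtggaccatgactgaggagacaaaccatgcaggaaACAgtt
Snora5c: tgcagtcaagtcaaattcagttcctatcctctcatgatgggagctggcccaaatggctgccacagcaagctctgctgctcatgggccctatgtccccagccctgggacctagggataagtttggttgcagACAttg
Snora73a and Snora73b were 96.6% identical over 205 bases, with 7 differences (G3A, G54A, A111G, T164C, G203A, T204A and T205A, with Snora73a first). With so few differences, reads could be split or shared between the 2 copies of either pair, and the sum of a pair is more certain than its parts. In all, 7 box C/D and 12 box H/ACA members had a near-identical copy among the transcripts of other genes in GENCODE M21 (at least 95% identity over at least 80% of the length).

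The libraries held 13102622 to 19810076 counts, and levels are given as CPM (counts scaled to library size, with library sizes corrected by TMM). Small nucleolar RNAs took 0.0441% and 0.0641% of counts in AD replicates 1 and 2, and 0.134% and 0.0871% in AD/KO replicates 1 and 2. Ociad1, the gene that encodes Asrij, had 691 and 1032 counts in AD and 746 and 592 in AD/KO. These are 50.2 and 63.4 CPM against 38.9 and 32.1 CPM, so its reads were not lost, and AD/KO below means the libraries labelled AD/KO. All 10 markers of microglia were detected in every library, but their summed level was 17520 and 11930 CPM in AD against 17670 and 5134 CPM in AD/KO. All 10 markers of neurons, astrocytes and oligodendrocytes were detected as well. The summed astrocyte level was 2057 and 4896 CPM in AD and 5144 and 13050 CPM in AD/KO, the oligodendrocyte level 1674 and 2710 against 3984 and 8697 CPM, and the neuronal level 352 and 1202 against 886 and 2796 CPM. Neutrophil markers summed to 5107 CPM in AD replicate 2 and to 406, 545 and 615 CPM in the other libraries, and endothelial markers to 50.5 to 79.6 CPM. AD/KO replicate 2 thus had the lowest microglial level and the highest levels of neuronal, astrocyte and oligodendrocyte markers, and the part of cell makeup in the results below was not tested.

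Small nucleolar RNAs of both classes were more abundant in sum in the 2 AD/KO libraries than in the 2 AD libraries. Box C/D members summed to 175 and 266 CPM in AD and 628 and 307 CPM in AD/KO. Box H/ACA members summed to 239 and 357 CPM in AD and 712 and 625 CPM in AD/KO. The groups did not overlap for either sum, but the box C/D sum in AD/KO replicate 2 lay close to the higher AD library. The ratio of the box C/D sum to the box H/ACA sum was 0.732 and 0.744 in AD, and in AD/KO it was 0.882 (replicate 1) and 0.491 (replicate 2), so the 2 AD/KO libraries lay on opposite sides of AD. In these bulk samples, fewer cells of a type and less RNA per cell cannot be told apart.

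Sums rest on few members. The 6 most abundant members (Snora73b, Snord17, Snora73a, Snora74a, Snord94 and Snord15b) held 72.6% and 77.5% of the members' level in AD and 76.8% and 84.6% in AD/KO. At the other end, 26 and 24 members had under 10 reads in the AD libraries and 16 and 32 in the AD/KO libraries. The median box C/D member stood at 0.798 and 0.799 CPM in AD and 1.04 and 0.543 CPM in AD/KO. The median box H/ACA member stood at 1.67 and 1.94 CPM in AD and 3.44 and 1.93 CPM in AD/KO. By median CPM of either class, then, only AD/KO replicate 1 was above both AD libraries. Member by member, AD/KO replicate 2 was above both AD libraries for 12 of 49 box C/D and 17 of 32 box H/ACA members. The share of all genes was 41.6%. Per kilobase of length the class medians lay closer together in AD, at 12.1 and 12.1 CPM per kb for box C/D and 14.8 and 15.8 CPM per kb for box H/ACA, and stood at 15.3 and 9.87 against 28.6 and 16.04 CPM per kb in AD/KO.

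**Figure D1:**
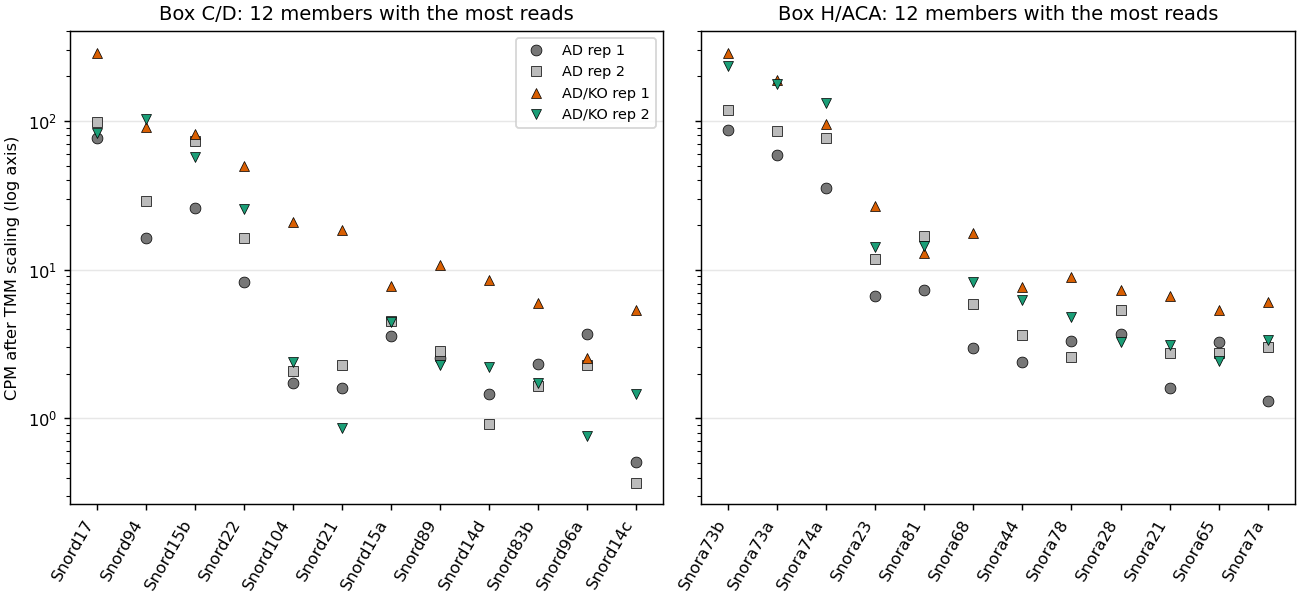
Level of the 12 members with the highest mean level in each class, as CPM on a log axis, 1 symbol per library. Snora73a, Snora73b and Snord94 are higher in both AD/KO libraries than in both AD libraries, whereas Snord17, Snord104 and Snord21 stand far above the other libraries in AD/KO replicate 1 only.

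No member passed the test across all genes. By the quasi-likelihood test of edgeR, with p-values adjusted by Benjamini-Hochberg, 0 of 21439 genes tested were called (0%), the smallest adjusted p was 0.68, and 67 members (39 box C/D and 28 box H/ACA) had enough reads to be tested. At an unadjusted p under 0.05, 2.7% of genes tested were higher and 2.3% lower in AD/KO, and among the members 9 were higher (5 box C/D, 4 box H/ACA) and 1 box C/D member was lower. DESeq2 called 88 genes at an adjusted p under 0.05 (0.113% of genes higher and 0.148% lower), of which Snord94 was a member.

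Over all members of a class, including those not tested, the log2 ratio of the AD/KO mean to the AD mean had a median of 0.18 in box C/D (quartiles -0.76 and 0.95) and 0.75 in box H/ACA (quartiles -0.06 and 1.26). Over the 23597 genes with 20 or more counts it was -0.03. The mean was higher in AD/KO for 28 of 49 box C/D members and 23 of 32 box H/ACA members, against 48.1% of all genes. Both AD/KO libraries were above both AD libraries for 10 of 49 box C/D members and 17 of 32 box H/ACA members, against 20.7% of all genes. Both were below for 11 box C/D members and for Snora75 alone in box H/ACA, against 21.1% of all genes. As shares, these are 20.4% and 22.4% in box C/D, near all genes in either direction and so no result about that class, and 53.1% and 3.12% in box H/ACA. Leaving out AD/KO replicate 1 gave a box C/D median of -0.36 and a box H/ACA median of 0.55, and leaving out AD/KO replicate 2 gave 0.46 and 0.90.

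The 2 AD/KO libraries gave different pictures. Against the AD mean, the median log2 ratio in AD/KO replicate 1 was 0.45 in box C/D and 0.89 in box H/ACA. In AD/KO replicate 2 it was -0.41 in box C/D and 0.49 in box H/ACA. AD/KO replicate 1 was above both AD libraries for 25 box C/D and 26 box H/ACA members, where 28.9% of all genes were. AD/KO replicate 2 was above both AD libraries for 12 box C/D and 17 box H/ACA members, where 41.6% of all genes were, and below both for 28 and 13, where 44.9% were. In all, 67 of 81 members were lower in AD/KO replicate 2 than in AD/KO replicate 1, where 49.5% of all genes were. Over every member, the median log2 ratio of replicate 2 to replicate 1 was -1.68 in box C/D and -0.98 in box H/ACA. Among the 2 AD libraries 42 of 81 members were higher in replicate 2. The order of members was also less stable in box C/D, with rank correlations of CPM between pairs of libraries of 0.411 to 0.745 across its 49 members, against 0.799 to 0.94 across the 32 box H/ACA members, whose range of levels differs.

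The difference between AD/KO and AD varied with abundance in both classes. Members were ranked by mean CPM over the 4 libraries and divided into tertiles of all members. In the most abundant tertile the median log2 ratio was 1.28 over 11 box C/D members and 1.15 over 16 box H/ACA members. In the middle tertile it was 0.16 over 20 box C/D members and 0.06 over 7 box H/ACA members. In the least abundant tertile it was -0.66 over 18 box C/D members and -0.25 over 9 box H/ACA members. In these tertiles the gap between the class medians was 0.13, 0.10 and 0.40, in place of 0.57 over whole classes, but the same libraries set the tertiles and the ratios. Ranked by AD level within each class, the most abundant tertiles had medians of 0.54 in box C/D and 1.18 in box H/ACA, so the gap there was not smaller, and the part of abundance in the class difference was not tested. Other genes in the CPM ranges of these tertiles had medians of -0.03, -0.11 and 0.04.

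**Figure D2:**
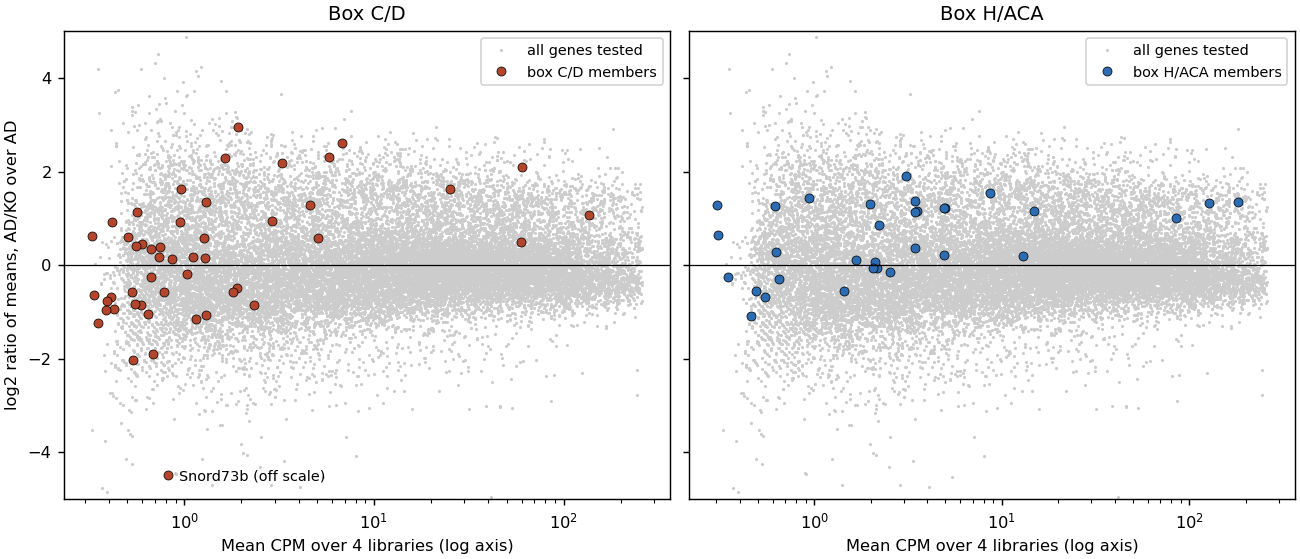
Log2 ratio of the AD/KO mean to the AD mean (vertical) against mean CPM over the 4 libraries (log axis), with 1 point per member, box C/D left and box H/ACA right, and all genes tested within the plotted range in grey. Members with the highest levels lie above 0 in both classes, and members with low levels spread on either side of 0, with Snord73b drawn off scale.

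Within each class the tertiles showed where the 2 AD/KO libraries parted. In the most abundant box C/D tertile (16 members) the median log2 ratio to the AD mean was 1.86 in the first AD/KO library (replicate 1) and 0.03 in the other (replicate 2). In the least abundant box C/D tertile (17 members) it was -0.06 and -1.91. In the most abundant box H/ACA tertile (11 members) both libraries were above AD, at 1.38 and 0.71, and in the least abundant (11 members) they were at 0.55 and -1.21. By this ranking, a low median in AD/KO replicate 2 was shared by the least abundant members of both classes, but AD/KO replicate 2 itself helps set the ranking. Ranked by AD level, its medians from high to low were -0.22, -1.40 and -0.30 in box C/D, with no single direction. In box H/ACA they were 0.81, -0.03 and -1.20. In the least abundant tertile by mean CPM most members had few reads. There, 10 of the 17 box C/D and 4 of the 11 box H/ACA members did not pass the filter for testing.

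**Figure D3:**
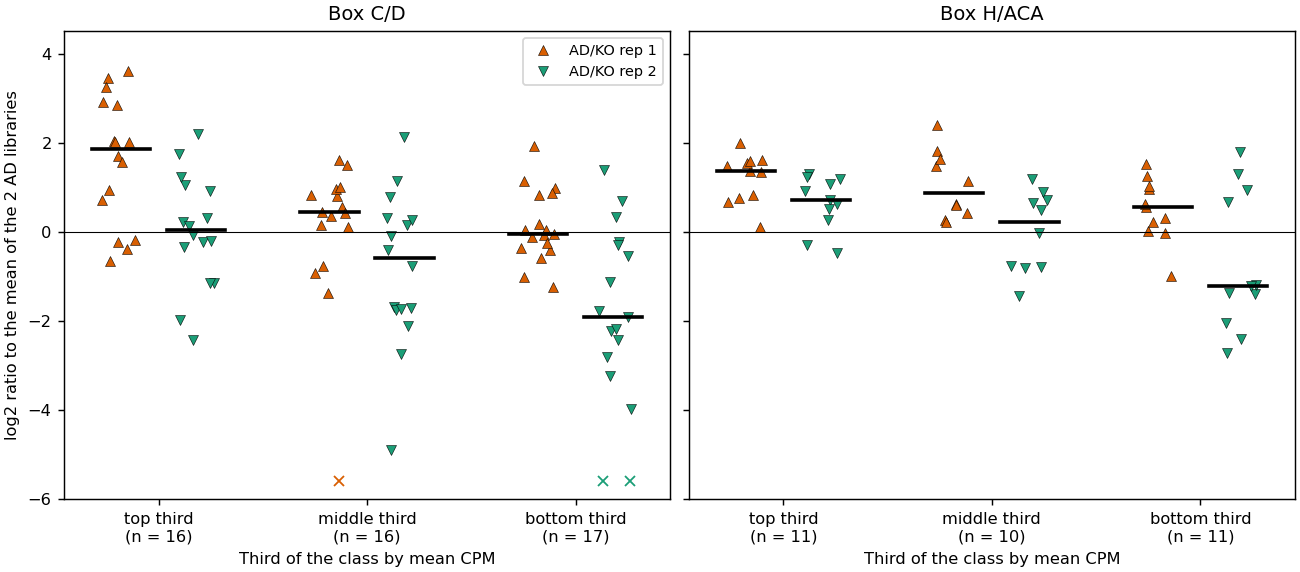
Log2 ratio of each AD/KO library to the mean of the 2 AD libraries, by class and by tertile of mean CPM within the class (n members), with 1 point per member, a bar at the median, and crosses at the lower edge for members with no read in that library. AD/KO replicate 1 lies above AD/KO replicate 2 by median in every tertile of both classes, and the bottom tertiles of AD/KO replicate 2 have medians of -1.91 and -1.21.

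How strong this dependence appears turns on which libraries set the abundance, since a level and a ratio taken from the same libraries share their counts. Across the 49 box C/D members, Spearman's rho between the log2 ratio and CPM was 0.524 with the mean of all libraries, 0.0369 with the AD libraries and 0.754 with the AD/KO libraries. Across the 32 box H/ACA members it was 0.453, 0.2 and 0.578. When the ratio came from the replicate 1 libraries and the level from the replicate 2 libraries, which share no reads, rho was 0.439 in box C/D and 0.734 in box H/ACA. The other way round it was 0.297 and 0.229. Each level here still included an AD/KO library, so a difference shared by both AD/KO libraries entered level and ratio alike. Over all genes with 20 or more counts the mean of all libraries gave 0.0262, and these 2 cross-wise values were 0.0802 and -0.0716. Ranked by AD level alone, the box C/D tertile medians were 0.54, -0.03 and 0.41 from high to low and had no single direction, whereas box H/ACA gave 1.18, 0.10 and 0.29. The comparison of the 2 AD libraries with each other also varied with mean CPM in box H/ACA, with a rho of 0.699, against 0.141 in box C/D.

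Among the abundant box C/D members, Snord94 and Snord22 were higher in both AD/KO libraries than in both AD libraries. Snord94, a guide for methylation of a spliceosomal RNA, had 226 and 473 reads in AD and 1756 and 1911 in AD/KO, or 16.4 and 29.1 CPM against 91.5 and 104 CPM. Both AD/KO libraries exceeded both AD libraries by more than the spread within either group, with a log2 fold change of 2.10 (SE 0.39). In edgeR's quasi-likelihood test this had an unadjusted p of 0.00301 and a Benjamini-Hochberg adjusted p of 0.68, and in DESeq2 an adjusted p of 0.0296. Snord22, which has no well-established target, had 114 and 265 reads in AD and 960 and 470 in AD/KO, or 8.27 and 16.3 CPM against 50.0 and 25.5 CPM. The groups did not overlap, and the log2 fold change was 1.62 (SE 0.53), with an adjusted p of 0.68 in edgeR's test, and ranged from 1.11 (AD/KO replicate 1 left out) to 2.26 (AD replicate 2 left out).

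The other abundant box C/D members were less even. Snord17, a guide for the large-subunit ribosomal RNA, had 1053 and 1610 reads in AD and 5506 and 1538 in AD/KO, or 76.4 and 98.96 CPM against 287 and 83.5 CPM. Its AD/KO replicate 2 value lay between the AD values, and without AD/KO replicate 1 its log2 fold change went from 1.08 (SE 0.64) to -0.02. Snord15b, inside the ribosomal protein gene Rps3, stood at 25.8 and 73.5 CPM in AD and 81.3 and 57.6 CPM in AD/KO, and the groups overlapped. Its log2 fold change was 0.48 (SE 0.56) and was -0.09 without AD replicate 1.

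Some shorter box C/D members were high in AD/KO replicate 1 alone. Snord104 had 24 and 34 reads in AD and 400 and 44 in AD/KO, or 1.74 and 2.09 CPM against 20.9 and 2.39 CPM. Snord21, inside Rpl5, had 22 and 37 reads in AD and 354 and 16 in AD/KO, or 1.60 and 2.27 CPM against 18.5 and 0.868 CPM. For both, the 2 AD/KO libraries differed from each other far more than the AD libraries did. Their log2 fold changes were 2.59 (SE 1.08) and 2.31 (SE 1.36), and without AD/KO replicate 1 they were 0.37 and -1.10.

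The Snord14 copies, which pair with the small-subunit ribosomal RNA precursor, did not behave alike. Snord14c had 7 and 6 reads in AD and 103 and 27 in AD/KO, with a log2 fold change of 2.95 (SE 0.89). Snord14d had 20 and 15 reads in AD and 163 and 41 in AD/KO, with a log2 fold change of 2.17 (SE 0.84). Both near-identical copies were above both AD libraries in each AD/KO library, and AD/KO replicate 1 was the higher of these. Without AD/KO replicate 1 the log2 fold changes of Snord14c and Snord14d were 1.78 and 0.96, and without AD/KO replicate 2 they were 3.61 and 2.85. Snord14e, of the same host, had 27 and 40 reads in AD and 27 and 32 in AD/KO, or 1.96 and 2.46 CPM against 1.41 and 1.74 CPM. Each AD/KO value was below both AD values, with a log2 fold change of -0.49 (SE 0.56), and Snord14a, inside Rps13, had 2 and 7 reads against 21 and 0 and was not tested.

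The members that have their own promoters rather than a host were also higher by mean. Snord13, which assists acetylation of the small-subunit ribosomal RNA, had 6 and 11 reads in AD and 80 and 24 in AD/KO, with a log2 fold change of 2.28 (SE 0.84). Snord118, needed to process the large-subunit ribosomal RNA, had 5 and 18 reads in AD and 40 and 30 in AD/KO, with a log2 fold change of 1.32 (SE 0.76). In both, each AD/KO library was above both AD libraries in CPM. With each library left out in turn, the log2 fold change ranged from 1.26 (without AD/KO replicate 1) to 2.89 (without AD/KO replicate 2) in Snord13 and from 0.74 (without AD replicate 1) to 2.40 (without AD replicate 2) in Snord118. Snord89, the third member without an annotated host, stood at 2.54 and 2.83 CPM in AD and 10.8 and 2.28 CPM in AD/KO.

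The imprinted clusters, known for expression in neurons, were represented by Snord116l12 alone. Of 17 Snord116l genes 16 fell below 20 counts, 9 of them at 0 in every library, and no Snord113, Snord114 or Snord115 gene was among those counted. Snord116l12 had 2 and 13 reads in AD and 16 and 38 in AD/KO, or 0.145 and 0.799 CPM against 0.834 and 2.06 CPM. Unlike most members it was highest in AD/KO replicate 2, as was its host Snhg14 at 70.0 and 501 CPM in AD and 508 and 1163 CPM in AD/KO. Its log2 fold change was 1.58 (SE 1.01), and ranged from 0.80 (AD/KO replicate 2 left out) to 3.31 (AD replicate 2 left out). The summed neuronal markers were also lowest in AD replicate 1 (352 CPM) and highest in AD/KO replicate 2 (2796 CPM). So were the summed astrocyte and oligodendrocyte markers. Between these extremes the neuronal sum was 1202 CPM in AD replicate 2 and 886 CPM in AD/KO replicate 1. Snhg14 was nearly level in these libraries, at 501 and 508 CPM. The cell source of Snord116l12 was not tested.

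Of box C/D, 11 members were below both AD libraries in each AD/KO library. All 11 were under 100 bases long in RefSeq, as were 43 of the 49 in the class. Snord73b had 19 and 30 reads in AD and 0 and 1 in AD/KO. With 1 read in 1 group, the ratio of AD/KO to AD was 0.0163, with an exact 95% interval of 0.000405 to 0.0952 that covers counting error only. The related Snord73a, below 20 counts, had 6 and 6 reads in AD and 2 and 0 in AD/KO, while the host Rps3a1 had a log2 ratio of -0.40. In edgeR's test Snord73b had an unadjusted p of 0.00408 and a Benjamini-Hochberg adjusted p of 0.68, and RefSeq lists it as a small nuclear RNA. Snord95, inside Rack1, had 18 and 14 reads in AD and 8 and 3 in AD/KO, with a log2 fold change of -1.87 (SE 0.80). Snord43 had 26 and 21 reads in AD and 18 and 9 in AD/KO, and Snord71 had 29 and 23 against 26 and 6, with log2 fold changes of -1.14 (SE 0.69) and -1.05 (SE 0.86). Without AD/KO replicate 2 these were -0.74 and -0.36, and without AD/KO replicate 1 they were -1.63 and -2.35. These 4 were among those 11, and the others were Snord12, Snord45b, Snord52, Snord58b, Snord85, Snord99 and Snord14e.

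Box H/ACA was led by the pair Snora73b and Snora73a, which are of the precursor-cleavage kind, followed by Snora74a. Snora73b had 1204 and 1931 reads in AD and 5495 and 4341 in AD/KO, or 87.4 and 119 CPM against 286 and 236 CPM. Snora73a had 815 and 1385 reads in AD and 3592 and 3244 in AD/KO, or 59.2 and 85.1 CPM against 187 and 176 CPM. Both AD/KO libraries exceeded both AD libraries, and the log2 fold changes were 1.34 (SE 0.35) and 1.33 (SE 0.33), with unadjusted p of 0.0128 and 0.0109 and adjusted p of 0.68 in edgeR's test. Snora74a, inside Snhg4, stood at 35.3 and 77.3 CPM in AD and 95.1 and 132 CPM in AD/KO, and its log2 fold change was 1.01 (SE 0.47). Unlike the pair inside Snhg3, it was highest in AD/KO replicate 2, and its log2 fold change was 0.54 without AD replicate 1 and 1.75 without AD replicate 2.

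Further abundant box H/ACA members were Snora23, Snora68 and Snora81, which guide pseudouridylation. Snora23 stood at 6.60 and 11.8 CPM in AD and 26.7 and 14.1 CPM in AD/KO, with a log2 fold change of 1.15 (SE 0.51). Snora68 had 41 and 95 reads in AD and 336 and 153 in AD/KO, or 2.98 and 5.84 CPM against 17.5 and 8.30 CPM, with a log2 fold change of 1.55 (SE 0.60). The groups did not overlap for either, and AD/KO replicate 1 was the higher AD/KO library. Without AD/KO replicate 1 their log2 fold changes were 0.67 and 0.97, and without AD replicate 2 they were 1.69 and 2.18. Snora81, inside Eif4a2, stood at 7.33 and 16.8 CPM in AD and 13.0 and 14.5 CPM in AD/KO, so the groups overlapped. Its log2 fold change was 0.19 (SE 0.50), and it was -0.30 without AD replicate 1 and 0.97 without AD replicate 2.

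Less abundant box H/ACA members that were higher included Snora5c, Snora30 and Snora64. Snora5c had 16 and 23 reads in AD and 130 and 54 in AD/KO, or 1.16 and 1.41 CPM against 6.78 and 2.93 CPM, with a log2 fold change of 1.91 (SE 0.66). Snora30 stood at 1.60 and 2.21 CPM in AD and 6.73 and 3.15 CPM in AD/KO, with a log2 fold change of 1.37 (SE 0.62). Snora64 stood at 0.581 and 0.430 CPM in AD and 0.991 and 1.74 CPM in AD/KO, with a log2 fold change of 1.42 (SE 0.70). In all of these each AD/KO library was above both AD libraries. With each library left out in turn, the log2 fold change ranged from 1.23 to 2.40 in Snora5c and 0.77 to 1.82 in Snora30 (lowest without AD/KO replicate 1, highest without AD/KO replicate 2), and from 0.97 to 1.82 in Snora64 (lowest without AD/KO replicate 2). The members with the most negative log2 fold changes among those tested were Snora41 (-0.66, SE 0.90), Snora16a (-0.55, SE 0.71), Snora2b (-0.53, SE 1.03) and Snora62 (-0.29, SE 1.11), each smaller than its standard error. Those of Snora41, Snora2b and Snora62 became positive when AD/KO replicate 2 was left out, at 0.03, 0.24 and 0.56.

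Length moved with abundance and with the difference. Box C/D members had a median RefSeq length of 71 bases (45 to 221) and box H/ACA members 121 bases (61 to 205). The RefSeq span was shorter than the GENCODE transcript for 34 box C/D and 24 box H/ACA members. Lengths, and levels per kilobase, thus depend on the annotation used. The 6 box C/D members of 100 bases or more (Snord17, Snord94, Snord15a, Snord15b, Snord22 and Snord118) had a median log2 ratio of 1.21, and all 6 were higher in AD/KO by mean. The 43 shorter box C/D members had a median of 0.13, and 22 were higher. In AD/KO replicate 2 alone the longer had a median of 0.63 and the shorter of -1.12. Across box C/D members, rho with length was 0.545 for the log2 ratio and 0.57 for mean CPM, so that length and abundance cannot be told apart in this class, while across box H/ACA members rho between the log2 ratio and length was -0.0893.

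**Figure D4:**
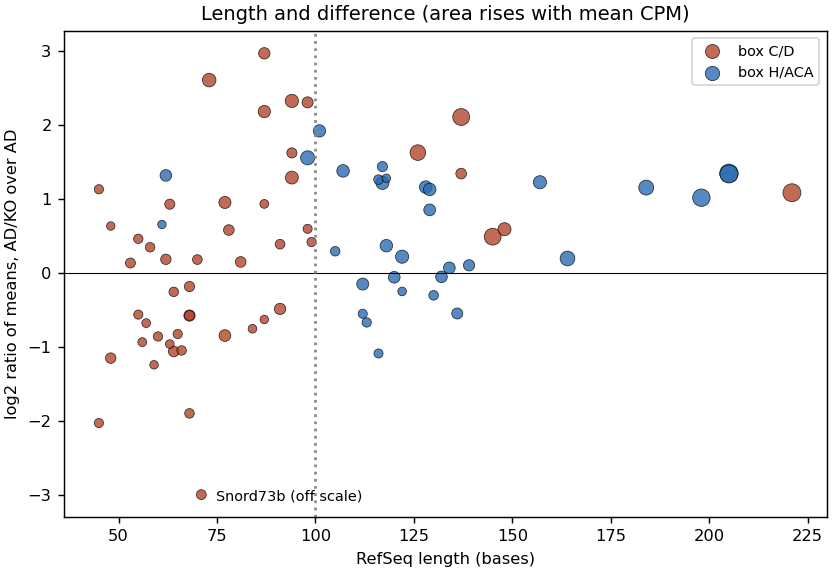
Log2 ratio of the AD/KO mean to the AD mean against RefSeq length in bases, with 1 point per member, colour for class, area rising with mean CPM and a dotted line at 100 bases. All 6 box C/D members of 100 bases or more lie above 0, and the shorter box C/D members lie on both sides.

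The class names were checked against the sequences. TGATG within the first 30 bases was found in 43 of 49 box C/D and 0 of 32 box H/ACA members, and in 3.16% of all GENCODE M21 transcripts. CTGA within the last 30 bases was found in 48 box C/D and 5 box H/ACA members, against 13.96% of transcripts. ACA within the last 12 bases was found in 30 box H/ACA and 6 box C/D members, against 17.2% of transcripts. The searches were on the transcript strand, and CTGA and TGATG can share letters only where they overlap as CTGATG. Many RefSeq spans, over which the genes may have been counted, are shorter than the GENCODE transcript (34 box C/D and 24 box H/ACA members). Snord22, Snord43, Snord57, Snord71, Snord85 and Snord118 were the box C/D members with no TGATG in the window. By GENCODE, 22 box C/D and 11 box H/ACA members lay in introns of their host, and 23 and 18 overlapped an exon of one of its transcripts, so that reads of a host transcript could count towards these.

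The log2 ratios of host genes lay closer to 0 than those of the members. Host genes were also more abundant, with a median level of 75 CPM against 1.26 CPM over all members. The part of counting error in the wider spread of the members was not tested. Of the members, 78 lay inside a host gene and 77 had a host with enough counts, giving 60 host genes with a median log2 ratio of 0.07, of which 34 were higher in AD/KO by mean. Box C/D members were above their host in log2 ratio in 23 of 46 cases (median difference -0.01), and box H/ACA members in 22 of 31 (median difference 0.68). Against their hosts, AD/KO replicate 1 gave higher ratios for 26 box C/D and 29 box H/ACA members, and AD/KO replicate 2 for 12 and 18. Across members, rho between the ratio of a member and that of its host was 0.309 in box C/D and 0.0508 in box H/ACA, where members of a host share its value.

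Named hosts show the gap. The log2 ratio of Snord94 was 2.10 and that of Ptcd3 was -0.39. Snord22 stood at 1.62 and Snhg1, in which it is the only member, at -0.93. Snora73a and Snora73b stood at 1.33 and 1.34 and Snhg3 at -0.08, on only 43 and 20 reads in AD and 53 and 25 in AD/KO. Hspa8 was at 0.51 and its 3 members between -0.49 and 2.96. Snora64 and Rps2 (1.43 and 1.17) and Snord116l12 and Snhg14 (1.62 and 1.55) were the pairs where member and host were both more than 1 log2 unit higher. By host type, the median was 0.38 over 29 members inside ribosomal protein genes, 0.97 over 18 inside non-coding genes and 0.13 over 31 inside other protein-coding genes. Snord32a was the only member inside Rpl13a, at 0.14, and Gas5 held no member.

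**Figure D5:**
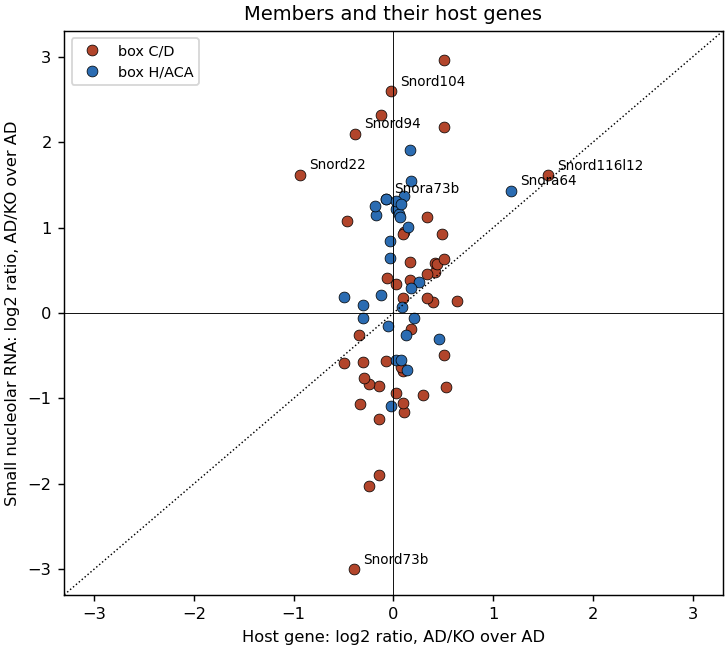
Log2 ratio of the AD/KO mean to the AD mean for each member (vertical) against that of its host gene (horizontal), with colour for class and a dotted line of equality. Most hosts lie within 1 log2 unit of 0, with Snhg14 (1.55) and Rps2 (1.17) above, while members spread more widely along the vertical axis. Hosts had the higher median level, at 75 CPM against 1.26 CPM over all members. Snord73b is drawn at the lower edge.

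Among the proteins of the small nucleolar RNA pathway, log2 ratios lay between -0.76 (Xrn2) and 0.44 (Nop10). With the listed non-coding hosts included, 0 of the 60 genes that were tested (of 61) had an adjusted or an unadjusted p under 0.05 in edgeR's quasi-likelihood test (Benjamini-Hochberg). Of the 4 box C/D core proteins, 3 were higher by mean and the median log2 ratio was 0.14. Fbl stood at 29.8 and 24.5 CPM in AD and 32.3 and 24.7 CPM in AD/KO, while Nop58 stood at 24.9 and 19.98 against 18.9 and 11.7 CPM. Of the 4 box H/ACA core proteins 1 was higher, Nop10, and the median was -0.08, with Dkc1 at 15.9 and 17.2 CPM in AD and 17.4 and 12.7 CPM in AD/KO. Core proteins of both classes thus overlapped between groups, except for Nop56 and Nop10, higher in both AD/KO libraries, and Nop58, lower in both. Of all genes, 20.7% were higher and 21.1% lower in this way, so these exceptions are no result about the core proteins. Among 14 assembly and transport factors 9 were higher (median 0.05), and the cap hypermethylase Tgs1 was lowest, at 69.9 and 50.2 CPM in AD and 44.9 and 32.6 CPM in AD/KO. Among 21 genes for release, trimming and decay 5 were higher (median -0.14), where 48.1% of all genes were, and 9 were below both AD libraries in each AD/KO library, where 21.1% of all genes were. The exonuclease Xrn2 was at 145 and 108 CPM in AD and 92.8 and 56.8 CPM in AD/KO, with a log2 fold change of -0.76 (SE 0.38) and an adjusted p of 0.68 in edgeR's quasi-likelihood test (Benjamini-Hochberg). Of 18 non-coding host genes on the list, 13 were higher (median 0.32), and Meg3 (log2 ratio 2.06), Rian (1.61), Snhg14 (1.55) and Snhg11 (1.48) exceeded the median of either class of small nucleolar RNA. Meg3, an imprinted gene, stood at 244 and 1097 CPM in AD and 1570 and 4009 CPM in AD/KO. Snhg11 overlapped between groups, at 141 and 955 CPM in AD and 871 and 2183 CPM in AD/KO. Meg3, Rian, Snhg14 and Snhg11 were each lowest in AD replicate 1 and highest in AD/KO replicate 2. So were the summed neuronal, astrocyte and oligodendrocyte markers, and the part of cell makeup was not tested.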

How the data were processed

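The authors deposited 1 table of raw read counts per gene symbol for each library, not normalized, and lines without a count (11 per table) were left out. Per the submitters' processing notes, the tools included HISAT2, SAMtools, featureCounts from Subread and DESeq2 1.30.0 on mm10. Use of strand and treatment of reads that match several places are not given in the sources used here, although the kit was stranded per the labels' protocols. Every library was 1 table, and 0 value columns were without a sample. Depth was 13102622 to 19810076 counts, so that members with few reads are imprecise. Counts carry no molecular identifiers.

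Genes were filtered with filterByExpr (minimum count 10, minimum total 15), scaled by TMM and tested with the quasi-likelihood F-test in edgeR 4.0.16 (R 4.3.3) on all 4 libraries without covariates, with Benjamini-Hochberg adjustment over all 21439 genes tested and a threshold of 0.05. The script was tested on simulated data. The class medians use the log2 ratio of group means of TMM-scaled CPM with no pseudocount, so that members not tested are included. Named members give edgeR's log2 fold change with its SE. Spans and hosts are from RefSeq for GRCm38.p6, and strand, sequence and motifs from GENCODE M21 on GRCm38. Near-identical copies were sought among GENCODE M21 transcripts with BLAST 2.17.0 (at least 95% identity over at least 80% of the length).

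The members and lists were chosen with earlier results of these data known. In each class the named members were the 6 with the highest level per length and the 4 highest and 4 lowest log2 fold changes among those tested. To these were added Snord94, Snord13, Snord118, the Snord14 copies, Snora73a, Snora73b and the imprinted cluster. Any other member was named with its values already seen. For 1 member, the host gene and the sequence are not reported here. Alternatives were DESeq2 1.42.0, other scalings and filters, a replicate block, each library left out and other abundance measures.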

Additional observations from a re-analysis of the deposited data

How the results depend on the processing

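With 2 libraries per group, low members rest on few reads, and the 2 AD/KO libraries gave different medians. Of 265 values for named members under other settings, 242 had the same sign and the same side of the threshold as reported, and of 110 summary values 83 did or stayed within the replicate spread. The cause of the other differences was not tested.

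Leaving out each library in turn gave a box C/D median log2 ratio of -0.36 (without AD/KO replicate 1) to 0.46, a class difference (box C/D minus box H/ACA, -0.57 with all libraries) of -0.91 (without AD/KO replicate 1) to -0.28 (without AD replicate 2), and a box C/D rho with abundance of 0.417 to 0.606. The box H/ACA rho ranged from 0.15 (without AD replicate 1) to 0.714. Members above AD in every AD/KO library used numbered 12 to 25 in box C/D (18 without AD replicate 2 and 25 without AD/KO replicate 2) and 17 to 26 in box H/ACA (26 without AD/KO replicate 2). Genes called numbered 0 to 524 (48 without AD replicate 1, 524 without AD replicate 2, of which 5 and 493 were higher, and 0 without either AD/KO library). In each of these fits the lone library of a group is assumed to vary like the other group, whose 2 libraries alone give the spread.

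With a mean of at least 1 CPM the box C/D median was 0.77 and the class difference -0.30. With at least 100 reads the box C/D median was 1.28, the class difference 0.16 and the box C/D rho 0.146 over 15 members. Of these 15, 6 were higher in both AD/KO libraries, where 20.7% of genes with 20 or more counts were. Both cuts use AD and AD/KO libraries together, so members high in AD/KO pass more readily. Snord14c passed 100 reads with 7 and 6 reads in AD, and Snord43 with 26 and 21 did not. These values thus cannot separate abundance from that selection. Members with no near-identical copy, a choice made after seeing the data, gave a class difference of -0.29. Of these, 6 of 42 box C/D and 10 of 20 box H/ACA members were higher in both, against 20.7% of all genes. AD replicate 2 against AD/KO replicate 1, a pair without test, gave 33 of 49 box C/D and 30 of 32 box H/ACA members higher. The box H/ACA rho of this pair was 0.0799, and its share of all genes is not given. The box C/D rho was 0.0369 with AD levels, 0.754 with AD/KO levels and 0.297 with the replicate 2 fold against the other libraries' level.

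DESeq2 called 88 genes (38 higher), among them Snord94 (log2 fold change 2.15, adjusted p 0.0296). The labels give replicate numbers but no shared source for them, and deviations of same-numbered libraries correlated by 0.718 over only 2 pairs. With the replicate block, edgeR called 4333 genes (2878 higher, 13.4% of genes tested, and 6.79% lower), among them 9 members: Snord94, Snord22, Snord14c, Snord14d, Snora73a, Snora73b, Snora74a and Snora5c higher and Snord73b lower, with adjusted p from 0.00217 to 0.0449. The block gave class medians of 0.23 and 0.73.

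Of the named members, 8 changed sign under some setting. Leaving out each library in turn, the log2 fold change ranged from -2.28 to 0.24 in Snora2b, -1.94 to 0.0283 in Snora41 and -2.58 to 0.56 in Snora62, with the lowest value without AD/KO replicate 1 and the highest without AD/KO replicate 2 (that of Snora62 was 0.06 without AD replicate 1). It ranged from -0.30 to 0.97 in Snora81 and -0.0885 to 1.497 in Snord15b, without AD replicate 1 and AD replicate 2, and from -0.0176 to 1.72 in Snord17 and -1.10 to 3.26 in Snord21, without AD/KO replicate 1 and AD/KO replicate 2. In AD replicate 2 against AD/KO replicate 1 it was 0.00752 in Snora16a, 0.66 in Snora2b, 0.14 in Snora41, 0.91 in Snora62 and -0.36 in Snora81.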

Other observations

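Other short structured RNAs differed in both directions. Of 139 genes outside the members that RefSeq lists as small nuclear RNAs, with 20 or more counts, 35 were higher and 104 lower in AD/KO by mean, with a median log2 ratio of -0.78, and 49 were below both AD libraries in each AD/KO library, where 21.1% of all genes were. Of 20 on a chosen list of structured RNAs (spliceosomal, Cajal body, Y and other RNAs), which shares genes such as Rn7sk with these, 19 were higher, with a median log2 ratio of 1.19, and 8 were above both AD libraries in each AD/KO library, where 20.7% of all genes were. The median level was 0.608 CPM over those 139 genes and 38.3 CPM over these 20, and the part of abundance was not tested. None of the 20 passed the adjusted test in edgeR. In that test 3 of them had an unadjusted p under 0.05 (Scarna2, Scarna6 and Scarna9, guide RNAs of the Cajal body, all higher). Scarna2 stood at 121 and 191 CPM in AD and 332 and 377 CPM in AD/KO, and Scarna6 at 22.2 and 33.0 against 55.7 and 70.8 CPM, so the groups did not overlap for either. Rny1, a Y RNA bound by the Ro protein, stood at 5.52 and 31.8 CPM in AD and 176 and 49.7 CPM in AD/KO. Rn7sk, which binds the elongation factor P-TEFb, stood at 7949 and 9038 CPM in AD and 19326 and 4966 CPM in AD/KO, so its AD/KO libraries lay on either side of AD. Rn18s-rs5, a ribosomal RNA gene that rRNA depletion acts on, stood at 5675 and 10857 CPM in AD and 2310 and 3419 CPM in AD/KO.

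Genes that RefSeq lists as small nucleolar RNAs under other symbols (194 with 20 or more counts) had a median log2 ratio of -0.36, with medians of 0.05 and -0.99 in AD/KO replicates 1 and 2, and 161 of them were lower in AD/KO replicate 2 than in AD/KO replicate 1. Their median level was 0.764 CPM. The order of the 2 AD/KO libraries was thus the same as in the Snord and Snora members, while the median lay below that of either named class.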
